A study of Mus musculus with 20 samples.

Results

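The collagen genes of isolated mouse islets were described in 20 RNA libraries. Members were all symbols of the form Col, a number, a and a number in the whole-body tables with a summed count above 0. This gave 44 of the 55416 genes listed there: 11 fibrillar collagens, 6 basement membrane collagens of type IV and 27 others. Every symbol of that form passed, so none lay just outside the threshold. The members nearest to it were Col9a1, with 5 counts over the 12 whole-body libraries, and Col2a1, with 10. Since members were selected on their summed counts, the levels below are a description.

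Poly(A) RNA was taken from islets of adult C57BL/6J mice. The islets had been freed from the pancreas with collagenase, an enzyme that cuts collagen protein, and were purified on a density gradient. In the whole-body line, mice with the genotype Cpeb1 KO/KO were set against Cpeb1 +/+ mice, with 3 females and 3 males of each. Knockout females 1 to 3 were 188, 165 and 98 days old and control females 188, 188 and 109 days. Knockout males were 155, 111 and 139 days old and control males 123, 122 and 111 days. In the beta-cell line, Cpeb1 flx/flx; Ins1-Cre/+ mice were set against Cpeb1 +/+; Ins1-Cre/+ mice, with 2 females and 2 males of each. All 8 of these mice carried Ins1-Cre, a recombinase driven by an insulin gene and so directed to beta cells, and the controls had no floxed allele. Females of this line were 108 and 107 days old and males 111 and 80 days, with the same pair of ages in knockouts and controls. CPEB1 is an RNA-binding protein that acts on the poly(A) tails and translation of mRNAs.

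Collagens are proteins of the extracellular matrix, built from chains wound around each other into a helix. Fibrillar collagens (types I, II, III, V, XI, XXIV and XXVII) form the fibres of connective tissue. Of these, types I and III are made mainly by fibroblasts and stellate cells. Type IV collagens form the sheet-like network of basement membranes. Within islets that membrane lies mainly around the capillaries, where endothelial cells make much of it. The other collagens include the beaded filaments of type VI, the fibril-associated FACIT types, the network-forming types VIII and X, the multiplexins XV and XVIII and the transmembrane types.

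Upstream sequences are shown for a few members. Col8a2 was the only collagen that passed the main test in any comparison, and Col3a1 had the highest fibrillar level. Col4a4 and Col4a3 share a single upstream stretch. RefSeq windows on GRCm38.p6 were found for 35 of the 44 members. The 250 bases before the start are given for the first pair of genes, on the plus strand at chr4:126286544-126286793 for Col8a2 and chr1:45311288-45311537 for Col3a1. For Col4a4 and Col4a3, which are read in opposite directions, the 71 bases between the annotated starts are given, at chr1:82586850-82586920 and on the plus strand. Capitals mark the GC box letters GGGCGG on either strand in Col8a2 and TATAAA in Col3a1.
Col8a2: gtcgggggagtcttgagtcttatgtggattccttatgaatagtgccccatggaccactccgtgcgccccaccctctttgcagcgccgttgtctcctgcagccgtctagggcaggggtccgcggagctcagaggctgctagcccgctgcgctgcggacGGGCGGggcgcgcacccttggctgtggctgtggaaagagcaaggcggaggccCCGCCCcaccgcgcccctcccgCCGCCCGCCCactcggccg
Col3a1: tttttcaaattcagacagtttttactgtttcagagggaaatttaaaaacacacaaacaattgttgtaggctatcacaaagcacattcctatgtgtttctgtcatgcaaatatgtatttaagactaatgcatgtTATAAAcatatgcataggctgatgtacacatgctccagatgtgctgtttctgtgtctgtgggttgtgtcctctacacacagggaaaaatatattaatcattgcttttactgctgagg
Col4a4/Col4a3: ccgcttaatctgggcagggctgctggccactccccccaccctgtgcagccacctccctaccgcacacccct
Col8a2 held 4 GC box matches, the last pair of which overlap, and no TATAAA. Col3a1 held 1 TATAAA and no GC box, and the stretch of Col4a4 and Col4a3 held neither of these nor CCAAT. On both strands of the 250 bases, GGGCGG was found in 57.9% of the 38 collagen windows and in 32.7% of all 32851 RefSeq windows. CCAAT was found in 34.2% of the collagen windows and 33.8% of all windows, and TATAAA in 13.2% and 12.4%.

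All collagens together took between 0.0213% and 0.1085% of the counts of a whole-body library and between 0.0388% and 0.0858% of those of a beta-cell line library. Totals ran from 41756830 to 112320368 counts in the whole-body line and from 40124922 to 101458838 in the beta-cell line. The ribosomal RNA Rn18s held 60.5% of the counts of whole-body control female 1, so levels are given as CPM (counts scaled to a common library size) after scaling by TMM, which multiplied the size of that library by 0.363. Summed beta-cell markers such as Ins2 and Iapp stood at 161310 to 318330 CPM in the whole-body line and 183060 to 312960 CPM in the beta-cell line; the label of islets was thus met by the genes that define them. Stellate and fibroblast markers summed to 217 to 796 CPM in the whole-body line and 223 to 502 CPM in the beta-cell line. None of these 14 markers was at 0 in every whole-body library. The beta-cell line tables, which omit low genes, listed 13 of them in both sexes. Acinar markers, which label the exocrine tissue around islets, ranged from 405 to 52016 CPM and from 4757 to 95643 CPM. Cpeb1 itself stood at 25.0 to 38.0 CPM in the whole-body knockouts and 38.3 to 65.3 CPM in their controls, and at 27.7 to 30.3 CPM against 50.8 to 69.2 CPM in the beta-cell line. The groups did not overlap within a sex.

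Levels of different collagens were compared per kilobase of exon. The basement membrane collagens Col4a1 and Col4a2, whose chains join into the common form of type IV, stood highest in both lines. Col4a1 (chromosome 8, 11198423 to 11312826, minus strand) had a mean of 22.5 ± 4.16 CPM per kb (SD, n = 12) in the whole-body line and 21.5 ± 5.63 (SD, n = 8) in the beta-cell line. Col4a2 (chromosome 8, 11312805 to 11449287, plus strand) had 15.3 ± 3.16 and 14.7 ± 4.78 CPM per kb. The pair lies head to head and overlaps by 22 bases. Col15a1, a multiplexin of vascular basement membranes, followed in the whole-body line at 8.29 ± 1.84 CPM per kb. Type IV genes made up 47.2% of the summed collagen level per kb in the whole-body line, fibrillar genes 16.8% and the others 36.0%. The beta-cell line had shares of 50.5%, 10.9% and 38.6%. The remaining type IV chains were far lower: Col4a3, Col4a4, Col4a5 and Col4a6 each had a mean under that of Col5a2, a minor fibrillar collagen.

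After Col15a1, the whole-body order per kb ran Col3a1 at 6.04, Col6a1 at 5.05, Col1a2 at 2.94, Col1a1 at 2.89, Col14a1 at 2.51, Col6a2 at 2.12 and Col6a6 at 2.11 CPM per kb. Col3a1, Col1a1 and Col1a2 are chains of the main fibrillar types III and I, Col6a1, Col6a2 and Col6a6 of beaded filaments, and Col14a1 is a FACIT collagen. Neighbours in this order were not tested against each other. From Col15a1 on, the SD of a gene over libraries was 1.11 to 3.13 CPM per kb. In the beta-cell line Col6a6 followed the type IV pair at 8.89 ± 1.61 CPM per kb (SD, n = 8), ahead of Col15a1 at 5.99, Col3a1 at 3.27, Col6a1 at 2.20, Col1a2 at 1.72, Col9a2 at 1.71, Col13a1 at 1.51 and Col6a3 at 1.502. The lines were separate batches, so their levels were not tested against each other. The order within the fibrillar genes depends on the length used: with the longest transcript in place of all exons, Col1a2 stood at 6.83 and Col1a1 at 3.19 CPM per kb in the whole-body line.

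**Figure D1:**
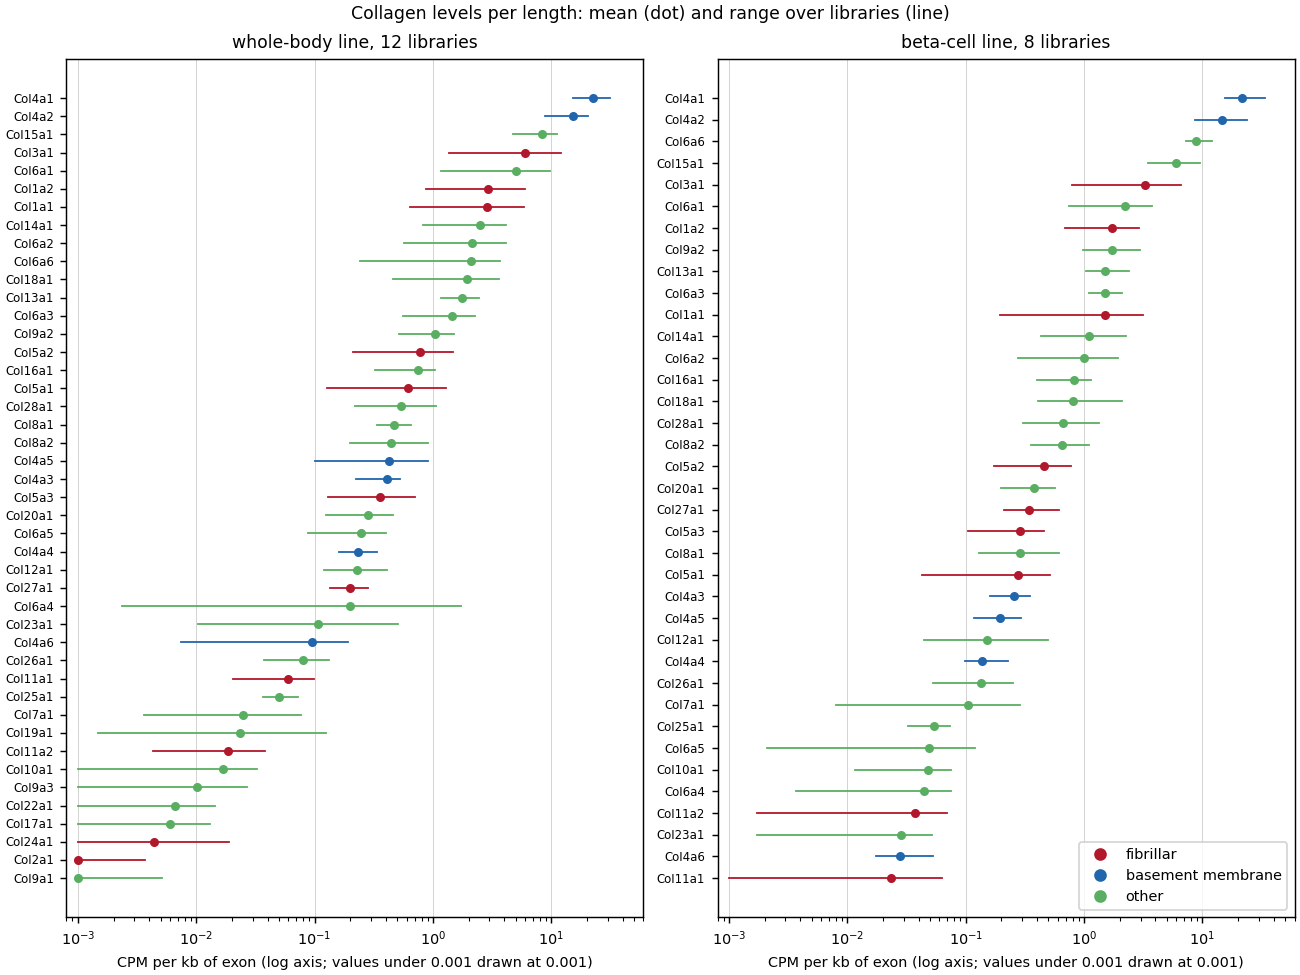
Mean level of each collagen in CPM per kb of exon on a log axis (dot), with the range over libraries (line), for the whole-body line (left, 12 libraries) and the beta-cell line (right, 8 libraries, or 4 for Col4a6 and Col10a1, which the table of a single sex lists). Col4a1 and Col4a2 lead both lists at 22.5 and 15.3 CPM per kb (whole-body) and 21.5 and 14.7 CPM per kb (beta-cell), and values under 0.001 are drawn at 0.001.

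At the other end, 7 collagens were too low to be tested in the whole-body line: Col2a1, Col9a1, Col9a3, Col10a1, Col17a1, Col22a1 and Col24a1. Col2a1, the main collagen of cartilage, was at 0 in 8 of 12 libraries, and Col9a1, its fibril-associated partner, in 9 of 12. Of the 44 members, 37 were tested in the whole-body line. The beta-cell line tables omit low genes and listed 36 members in each sex. They shared 35, all of which were tested; Col4a6 was listed in males alone and Col10a1 in females alone.

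Fibrillar and beaded filament collagens varied widely between mice of a group. Among members with a mean of at least 1 CPM, the within-group SD of the log2 level had a median of 0.80 over 7 fibrillar genes, 0.30 over 5 type IV genes and 0.42 over 17 others in the whole-body line. Over all 13865 genes at that level it was 0.19. The medians of the beta-cell line were 0.58, 0.32 and 0.44, beside 0.16 over 13436 genes. Single genes crossed these classes: in the whole-body line the SD was highest for the beaded filament chains Col6a6 (1.2997), Col6a4 (1.21) and Col6a1 (0.93) and for Col18a1 (0.93), followed by Col1a1 and Col3a1 (0.92 each). In bulk RNA of whole islets, fewer cells of a type and less RNA per cell cannot be told apart.

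Col1a1 (chromosome 11, 94936224 to 94953042) shows this spread. It stood at 18.0, 36.8 and 12.8 CPM in whole-body knockout females 1 to 3 and at 21.4, 4.21 and 38.3 CPM in control females. It was at 20.1, 7.06 and 11.8 CPM in knockout males and 24.0, 16.8 and 15.8 CPM in control males. The lowest and the highest of the 12 values were thus both control females, and the knockout and control groups overlapped in both sexes. Col1a2, its partner chain in type I collagen, followed it, with 33.2, 75.1 and 28.0 CPM in female knockouts against 27.3, 10.9 and 70.9 in female controls, and 44.5, 14.7 and 24.9 in male knockouts against 41.4, 38.1 and 29.5 in male controls. Col3a1, the single chain of type III collagen, had 51.4, 119 and 58.1 CPM in female knockouts against 45.8, 13.4 and 112 in female controls, and 68.4, 21.3 and 50.3 in male knockouts against 62.8, 57.7 and 51.2 in male controls. In each of the 3 genes control female 2 was lowest, and knockout female 2 and control female 3 were the highest pair. Col5a1, a chain of the type V collagen that starts fibrils, had 4.54, 9.66 and 4.58 CPM in female knockouts against 5.55, 1.07 and 10.9 in female controls, and 5.75, 1.40 and 3.495 in male knockouts against 5.30, 5.92 and 4.07 in male controls.

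The beaded filament chains behaved alike. Col6a1 had 18.1, 39.3 and 23.1 CPM in female knockouts against 19.4, 5.07 and 42.5 in female controls, and 33.5, 7.23 and 16.1 in male knockouts against 21.6, 22.6 and 17.1 in male controls. Col6a2 had 15.5, 33.7 and 18.3 CPM in female knockouts against 16.8, 4.69 and 34.4 in female controls, and 22.6, 5.42 and 12.1 in male knockouts against 17.2, 18.5 and 12.8 in male controls. Both were again lowest in control female 2 and knockout male 2.

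Col4a1 and Col4a2 were steadier, with a within-group SD of 0.30 and 0.35 on the log2 scale. Col4a1 had 151, 157 and 211 CPM in whole-body female knockouts against 164, 114 and 232 in female controls, and 188, 162 and 159 in male knockouts against 152, 176 and 148 in male controls. Col4a2 had 89.3, 90.3 and 128 CPM in female knockouts against 94.8, 58.0 and 134 in female controls, and 125, 105 and 97.4 in male knockouts against 93.2, 112 and 91.8 in male controls. Knockout male 2, which was low for the fibrillar genes, was not low for this pair. Of the other type IV chains, Col4a5 was more variable (SD 0.67, with 0.682 CPM in knockout male 2 and 6.11 CPM in knockout female 2), as was Col4a6 (SD 0.40, with 0.0588 to 1.51 CPM), and both were lowest in knockout male 2. Of the multiplexins, which lie at vascular basement membranes, Col15a1 had 48.9, 59.0 and 63.8 CPM in female knockouts against 48.3, 30.1 and 71.2 in female controls, and 62.4, 43.7 and 46.4 in male knockouts against 44.7, 65.2 and 48.3 in male controls. Col18a1, the source of endostatin, had 10.6, 20.4 and 23.7 CPM in female knockouts against 15.6, 3.21 and 18.9 in female controls, and 25.3, 3.71 and 7.59 in male knockouts against 10.7, 12.5 and 9.82 in male controls.

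**Figure D2:**
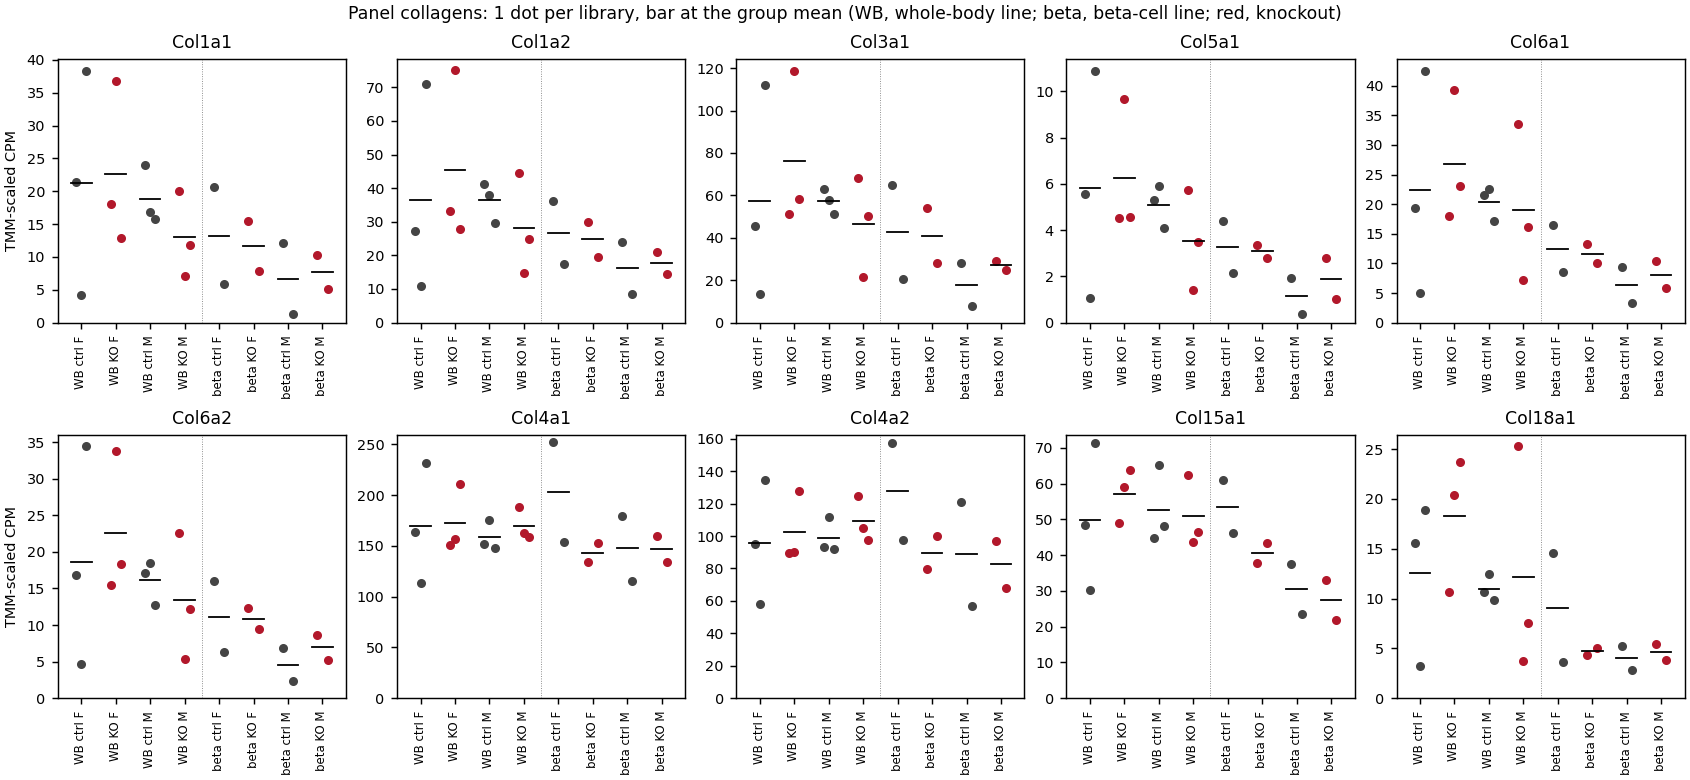
TMM-scaled CPM of 10 collagens in every library (dots; red, knockout; grey, control) with group means (bars), for the whole-body line (WB, left of the dotted line) and the beta-cell line (beta). Col1a1 spans 4.21 to 38.3 CPM among the whole-body control females alone, and knockout and control values overlap in both sexes of that line for all 10 genes.

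Single libraries carried much of the spread. Control female 2 of the whole-body line was the lowest of 12 for 22 of the 37 tested collagens, and control female 3 the highest for 12. In control female 2 the median deviation from the median of the line was -1.44 log2 units over 7 fibrillar genes, -0.68 over 5 type IV genes and -0.67 over 17 others. Control female 3 stood at 1.00, 0.48 and 0.36. Knockout male 2 stood at -1.08 for the fibrillar genes and at a median of 0.03 for type IV, of which Col4a5 stood at -1.0001. Control female 2 also had the lowest summed stellate and fibroblast markers (217 CPM, with the other libraries at 339 to 796) and endothelial markers (403 CPM, the others at 668 to 1043), and the highest acinar markers (52016 CPM, the others at 405 to 12635). The part of cell composition in the collagen values was not tested.

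Control female 1 of the beta-cell line was the highest of 8 for 23 of the 35 collagens and control male 2 the lowest for 20. Col1a1 stood at 20.6 CPM in control female 1 and 5.82 CPM in control female 2, beside 15.4 and 7.83 CPM in knockout females. It was at 12.1 and 1.27 CPM in control males and 10.2 and 5.17 CPM in knockout males. The lowest of the 8 values and the highest were thus both from controls, and the genotypes overlapped in both sexes. Col1a2 had 29.96 and 19.5 CPM in female knockouts against 36.0 and 17.5 in female controls, and 21.003 and 14.4 in male knockouts against 23.9 and 8.62 in male controls. Col3a1 had 53.9 and 28.0 CPM in female knockouts against 64.8 and 20.8 in female controls, and 29.1 and 24.9 in male knockouts against 28.0 and 7.77 in male controls. Col5a1 had 3.36 and 2.80 CPM in female knockouts against 4.40 and 2.17 in female controls, and 2.77 and 1.01 in male knockouts against 1.91 and 0.364 in male controls. For all 4 fibrillar genes the control values lay on both sides of the knockout values in females. The stellate and fibroblast markers summed to 502 CPM in control female 1 and 223 CPM in control male 2, the highest and the lowest of that line.

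Among the beaded filaments, Col6a1 had 13.3 and 10.02 CPM in female knockouts against 16.5 and 8.47 in female controls, and 10.3 and 5.83 in male knockouts against 9.40 and 3.24 in male controls. Col6a2 had 12.4 and 9.42 CPM in female knockouts against 16.0 and 6.29 in female controls, and 8.62 and 5.26 in male knockouts against 6.86 and 2.29 in male controls. The values of both genes overlapped between genotypes. Col4a1 had 134 and 153 CPM in female knockouts against 253 and 154 in female controls, and 159.8 and 134 in male knockouts against 179.7 and 116 in male controls. Col4a2 had 79.7 and 99.9 CPM in female knockouts against 157 and 97.7 in female controls, and 97.1 and 68.0 in male knockouts against 121 and 56.8 in male controls. Control female 1 stood apart from the other 3 females in both, and for Col4a1 both knockout females lay below both controls, by less than 1 CPM for the nearest pair. Col15a1 had 37.8 and 43.5 CPM in female knockouts against 60.9 and 46.2 in female controls, and 33.1 and 21.9 in male knockouts against 37.4 and 23.6 in male controls. Col18a1 had 4.37 and 5.04 CPM in female knockouts against 14.6 and 3.66 in female controls, and 5.44 and 3.84 in male knockouts against 5.26 and 2.87 in male controls.

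**Figure D3:**
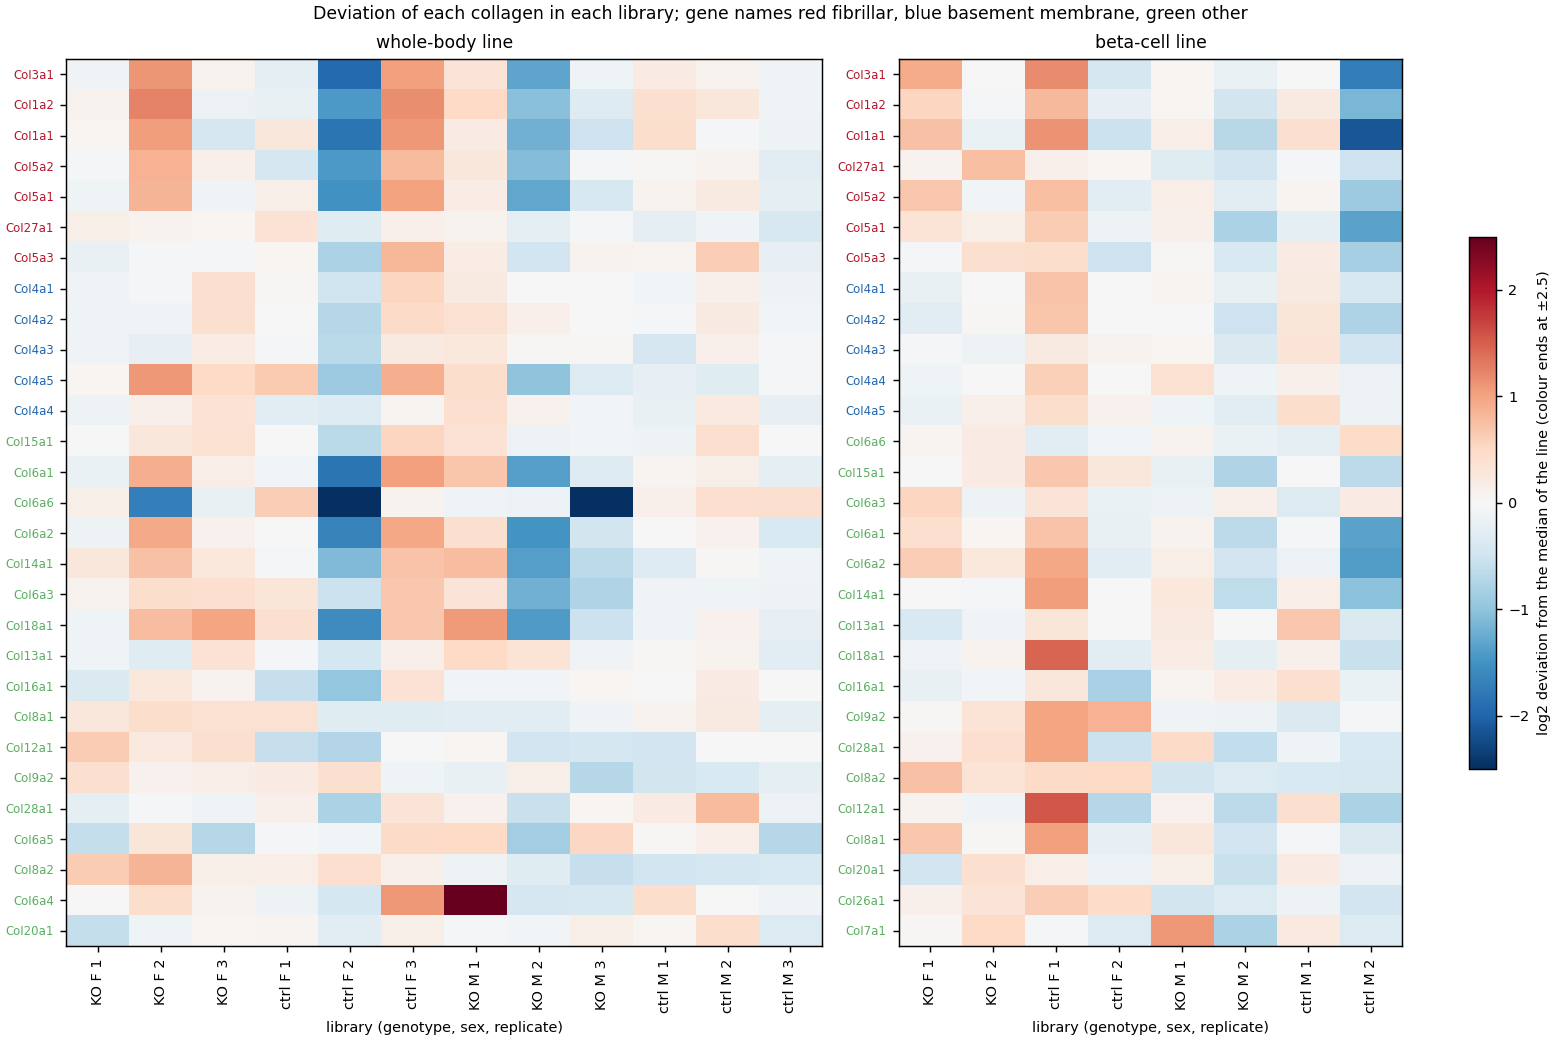
Log2 deviation of each collagen with a mean of at least 1 CPM (rows) in each library (columns) from the median of its line, for the whole-body line (left) and the beta-cell line (right). Whole-body control female 2 is low across the fibrillar rows (median -1.44) and control female 3 high (median 1.00), so the columns of a single group differ as much as those of different groups.

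Chains of types I, IV and VI rose and fell with their partner chains across the 12 whole-body libraries, and Col3a1 was set beside Col1a1 as another fibrillar collagen. Of 6 relations computed, Col6a1 with Col6a2 had a Pearson r of 0.991 and a Spearman rho of 0.993, and Col4a1 with Col4a2 an r of 0.962 and a rho of 0.944. Both had a raw permutation p of 1e-05 for r, the smallest that 100000 resamples can give, and an adjusted p of 3e-05. For Col1a1 with Col1a2 r was 0.963 and rho 0.867 (permutation p 2e-05 and 0.00057, adjusted 4e-05 and 0.00114). For Col1a1 with Col3a1 r was 0.946 and rho 0.783 (permutation p 6e-05 and 0.00417, adjusted 9e-05 and 0.005). The rho of the type IV pair had a permutation p of 2e-05 and that of the type VI pair 1e-05, both adjusted to 6e-05. Without the 2 libraries farthest from the median of the first gene, r was 0.976 for the type VI pair, 0.942 for the type IV pair, 0.908 for Col1a1 with Col1a2 and 0.835 for Col1a1 with Col3a1. The rho of that last pair was then 0.624 (permutation p 0.0614, adjusted 0.0737), past the threshold no longer. As deviations from the group means, r was 0.998, 0.995, 0.964 and 0.959 in the same order. All libraries share a batch, and the points share their library's scaling.

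Col4a1 also followed the summed endothelial markers, with an r of 0.859 and a rho of 0.825 (permutation p 0.00081 and 0.00185, adjusted 0.000972 and 0.00277). Its r was 0.916 without its 2 farthest libraries, which were control females 2 and 3. As single libraries were left out, the r of Col4a1 ran from 0.750 (without control female 2) to 0.959 (without control female 3). Col1a1 followed the summed stellate and fibroblast markers with an r of 0.760 and a rho of 0.622 (permutation p 0.00469 and 0.035, the same after adjustment). Without control female 2 and knockout male 2 that r was 0.315 (permutation p 0.378). These were the 2 lowest libraries for Col1a1, so leaving them out narrows its range. That setting cannot decide whether the relation holds among the other libraries. With single libraries left out, r ran from 0.552 (without control female 2) to 0.929 (without knockout female 3). As deviations from the group means it was 0.801.

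The level of a chain relative to its partner varied less than the chains themselves. Per kb, Col4a1 stood at 1.48 ± 0.104 times Col4a2 (SD, n = 12) among whole-body libraries. In the 8 beta-cell line libraries it stood at 1.32 to 1.81 times Col4a2. Col6a1 stood at 2.38 ± 0.205 and 2.28 ± 0.294 times Col6a2. For Col1a1 over Col1a2 the ratio was 0.972 ± 0.190 and 0.786 ± 0.258, with its lowest value of 0.728 in whole-body control female 2 and 0.279 in control male 2 of the beta-cell line. These ratios depend on the length: with the longest transcripts they were 1.62, 1.498 and 0.463 in the whole-body line.

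Females of the whole-body line were compared first, to see which collagens differ between Cpeb1 knockouts and controls. No collagen was called at an adjusted p under 0.05 by edgeR's quasi-likelihood test, where 0.00545% of the 18359 genes tested were called. Above 0 were 8 of 9 fibrillar, 6 of 6 type IV and 14 of 22 other collagens, with median log2 changes of 0.24, 0.18 and 0.16, beside 0.01 over all genes. Scaled by library size alone, all genes had a median of 0.45, and 33 of 37 collagens were above 0, 28 of them above that median, as with TMM. Without control female 2 these medians were -0.16, -0.16 and -0.03, and without control female 3 they were 0.94, 0.59 and 0.44. The same comparison had all 12 endothelial markers above 0 (median 0.43), 11 of 14 stellate and fibroblast markers above 0 (median 0.36) and all 19 acinar markers below 0 (median -2.30). Their part in the collagen values was not tested.

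At an unadjusted p under 0.05 stood 2 of 37 collagens, 5.41%, beside 11.2% of all genes. The first was Col12a1 (chromosome 9, 79598991 to 79718831, minus strand), a FACIT collagen of tendon and fascia. It had 6.20, 4.52 and 5.18 CPM in knockout females and 2.11, 1.82 and 3.65 CPM in control females, so the groups did not overlap. Its log2 change was 1.06 (SE 0.309, edgeR adjusted p 0.444), with an adjusted p of 0.0529 to 0.805 over the alternatives, the lowest without control female 3. The other was Col7a1, which anchors the skin's basement membrane, with 0.197, 0.226 and 0.0369 CPM in knockout females and 0.793, 0.706 and 0.315 CPM in control females. Its log2 change was -1.93 (SE 0.804, edgeR adjusted p 0.444), on 258 counts over the 12 libraries together. Knockout female 3 was near the limit of counting, since 3 counts make 0.0277 CPM there. In control female 1, 3 counts make 0.198 CPM.

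The 10 collagens of the panel had log2 changes of 0.03 to 0.55 in females. For Col4a1 the change was 0.03, with a 95% interval of -0.47 to 0.52, and for Col4a2 it was 0.10 (-0.47 to 0.67). For Col1a1 it was 0.08, with an interval of -1.48 to 1.65, and for Col3a1 0.41 (-1.12 to 1.94). For Col6a1 the change was 0.26 (-1.34 to 1.87), for Col15a1 0.20 (-0.41 to 0.81) and for Col18a1 0.55 (-1.13 to 2.22). The intervals of Col4a1 and Col4a2 thus leave out a change of 1 log2 unit in either direction, and those of Col1a1 and Col3a1 do not. After Col12a1 and Col7a1, the smallest p values were those of Col8a1 (0.53), Col8a2 (0.44), Col4a4 (0.41) and Col16a1 (0.36) above 0, and Col6a5 (-0.60), Col20a1 (-0.33), Col5a3 (-0.39) and Col19a1 (-0.69) below 0, all log2 changes with an unadjusted p of at least 0.0594.

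In whole-body males no collagen was called and none had an unadjusted p under 0.05, where 0.0218% and 7.47% of all genes were. Fibrillar collagens were above 0 in 2 of 9 (median log2 change -0.34), type IV in 6 of 6 (median 0.19) and the others in 8 of 22 (median -0.11). Over all genes the median was 0.02. Without knockout male 1 the fibrillar median was -0.68 and that of the others -0.46, and without knockout male 2 the fibrillar median was -0.07. The type IV median ran from 0.03 to 0.31 as each library was left out. Acinar markers were below 0 in 19 of 19 here too (median -3.34), and stellate and fibroblast markers above 0 in 6 of 14 (median -0.13). Their part was not tested.

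Panel changes in males were -0.54 for Col1a1 (95% interval -2.11 to 1.03), -0.37 for Col1a2, -0.29 for Col3a1 and -0.52 for Col5a1, on the log2 scale. Col4a1 changed by 0.10 (-0.39 to 0.59), Col4a2 by 0.14, Col15a1 by -0.05, Col18a1 by 0.15, Col6a1 by -0.10 and Col6a2 by -0.27, and every interval held 0. The smallest p above 0 was that of Col6a4, a further beaded filament chain, with a log2 change of 3.27 (SE 2.02, edgeR adjusted p 0.912). That change rests on knockout male 1, in which Col6a4 stood at 14.8 CPM, while the other 11 libraries had at most 1.90 CPM. Without this mouse the log2 change was -3.64. Col23a1, a transmembrane collagen, was also high in knockout male 1, at 2.90 CPM against at most 1.09 CPM elsewhere, and its log2 change of 1.24 turned to -1.51 without it. Col13a1 (0.35), Col27a1 (0.26) and Col4a4 (0.28) followed above 0, and Col11a1 (-0.65), Col28a1 (-0.60), Col8a1 (-0.33), Col26a1 (-0.48) and Col6a6 (-0.98) had the smallest p below 0. Col6a6 stood at 24.2, 5.97 and 18.9 CPM in female knockouts against 33.6, 2.29 and 23.2 in female controls, and 20.2, 19.4 and 2.22 in male knockouts against 23.8, 29.3 and 29.0 in male controls, with a single low mouse in 3 of the 4 groups.

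For the mean of both sexes 0.0327% of all genes were called and no collagen. Col7a1 alone of the 37 had an unadjusted p under 0.05, beside 5.9% of all genes, with a log2 change of -1.26 (SE 0.568, edgeR adjusted p 0.841). By edgeR the male minus female knockout effect was called for no gene at all. Col12a1 (-1.24, SE 0.433, edgeR adjusted p 0.346) and Col8a1 (-0.85, SE 0.351, adjusted p 0.407) had an unadjusted p under 0.05, 5.41% of the collagens beside 10.9% of all genes. The difference between the sexes in the Col12a1 change thus failed the correction. Males stood at 3.82, 2.35 and 2.43 CPM in knockouts and 2.37, 3.68 and 3.71 CPM in controls, which overlap.

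In beta-cell knockout females no collagen was called, beside 0.0123% of the 16284 genes tested. Type IV collagens were below 0 in 5 of 5 (median log2 change -0.50), fibrillar in 5 of 9 (median -0.07) and the others in 14 of 21 (median -0.19), beside a median of -0.01 over all genes. These medians rest on the controls: without control female 1 they were -0.12, 0.50 and 0.36, and without control female 2 they were -0.81, -0.52 and -0.58. In the same comparison 12 of 12 endothelial markers were below 0 (median -0.43), 11 of 13 stellate and fibroblast markers below 0 (median -0.42) and 19 of 19 acinar markers above 0 (median 0.79), and their part was not tested.

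Col9a2 (chromosome 4, 121039385 to 121055322), a FACIT collagen of cartilage, was the only member with an unadjusted p under 0.05 in the unpaired fit, 2.86% of the collagens beside 3.11% of all genes. With the replicate number as a block Col15a1 passed too (log2 change -0.39, p 0.0318, edgeR adjusted p 0.755), beside 6.44% of all genes. Col9a2 had 4.32 and 5.58 CPM in knockout females and 9.23 and 8.47 CPM in control females, with no overlap. Its log2 change was -0.84 (SE 0.223, edgeR adjusted p 0.999). In males it stood at 3.80 and 3.73 CPM in knockouts and 3.04 and 4.06 CPM in controls, and the male minus female effect was 0.92 (SE 0.314, edgeR adjusted p 1.00, unadjusted p 0.0203), a threshold passed by 1 of 35 collagens and 1.3% of all genes. Among the panel genes of these females, Col4a1 changed by -0.50 (95% interval -1.18 to 0.17), Col4a2 by -0.51 (-1.48 to 0.46), Col15a1 by -0.40 (-1.06 to 0.26), Col18a1 by -0.95 (-2.44 to 0.53) and Col1a1 by -0.19 (-3.19 to 2.80). The other 5 changed by -0.12 to -0.04. Col4a4 (-0.66) and Col25a1 (-0.60) had the next smallest p below 0, and Col27a1 (0.44), Col6a6 (0.30), Col7a1 (0.96), Col6a3 (0.15) and Col11a2 (0.34) the smallest above 0.

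In beta-cell knockout males no gene of the 16284 was called by edgeR. None of the 35 collagens had an unadjusted p under 0.05, beside 1.85% of all genes, and none was called by DESeq2 or limma-voom. With the replicate number as a block, Col5a1 (log2 change 0.97, p 0.0288) and Col6a2 (0.75, p 0.0483) passed an unadjusted p under 0.05, beside 3.68% of all genes, both with an edgeR adjusted p of 0.999. Of the panel, Col3a1, Col5a1, Col6a1, Col6a2 and Col18a1 were higher in the knockout of both same-numbered male pairs. Fibrillar collagens were above 0 in 7 of 9 (median 0.22), type IV in 1 of 5 (median -0.11) and the others in 12 of 21 (median 0.08). Without control male 1 the fibrillar median was 1.26 and the type IV median 0.52, and without control male 2 they were -0.44 and -0.55. The panel changes ran from -0.15 for Col15a1 to 0.74 for Col5a1, with -0.01 for Col4a1 (95% interval -0.68 to 0.66), 0.22 for Col1a1 (-2.80 to 3.23), 0.60 for Col3a1 and 0.61 for Col6a2. The smallest p values were those of Col6a4 (1.60), Col25a1 (0.51), Col6a2, Col5a1 and Col3a1 above 0 and of Col4a5 (-0.71), Col6a6 (-0.19), Col26a1 (-0.27), Col20a1 (-0.31) and Col15a1 below 0.

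**Figure D4:**
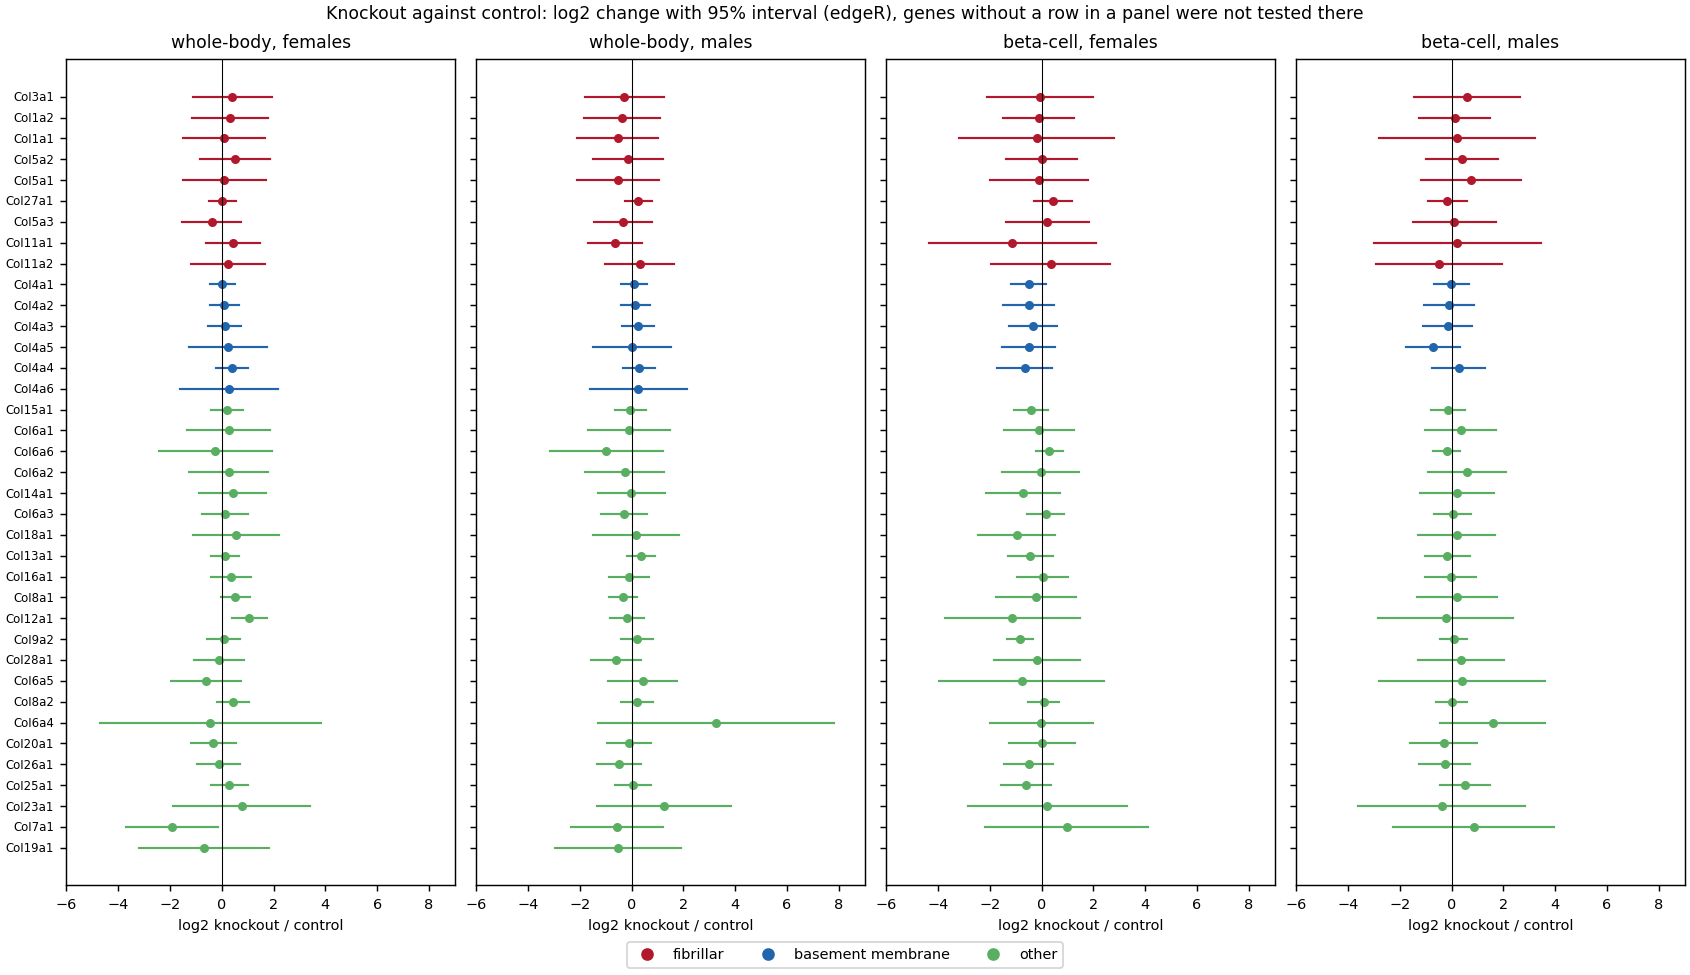
Log2 change of each tested collagen in knockout against control mice (dot) with its 95% interval (line) from edgeR, by sex and line, with fibrillar, basement membrane and other collagens in separate colours. The interval of Col4a1 runs from -0.47 to 0.52 in whole-body females and that of Col1a1 from -1.48 to 1.65, and no collagen passed an adjusted p under 0.05 in any of the 4 panels.

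For the mean of both sexes in the beta-cell line 0.0368% of all genes were called and no collagen. Col9a2 had an unadjusted p of 0.0451 (log2 change -0.38, SE 0.157, edgeR adjusted p 1.00), beside 3.65% of all genes under 0.05. With the block Col15a1 (-0.27, p 0.0354) and Col9a2 (-0.37, p 0.0474) were under 0.05, beside 7.03% of all genes. All 5 type IV genes were below 0 (median -0.26), with Col4a5 at -0.60 and Col4a1 at -0.26. In the whole-body line all 6 were above 0 (median 0.15). Without whole-body control female 2 that median was 0.01, with 3 of 6 above 0, and without beta-cell line control male 1 the other was -0.06, with 2 of 5 above 0. Endothelial markers had medians of 0.25 (11 of 12 above 0) in the whole-body line and -0.30 (12 of 12 below 0) in the beta-cell line, and their part was not tested. The mean knockout effects of the lines were compared directly: no collagen was called, beside 0.0184% of all genes, and none had an unadjusted p under 0.05, beside 3.41%. Col4a2 differed by -0.41 (95% interval -1.13 to 0.31), and the smallest p values were those of Col7a1 (2.15), Col9a2 (-0.50), Col13a1 (-0.53) and Col12a1 (-1.10).

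Other tools gave no collagen call in the knockout comparisons either. DESeq2 called 0.659% of all genes in whole-body females, 1.6% in males and 1.07% for their mean, and 2.57% for the male minus female effect. For the beta-cell knockouts it called 0.178%, 0.117%, 0.233% and 0.043% in that order, and 0.086% between the lines. With limma-voom the shares were 0.00545%, 0.0218% and 0.0327% for the whole-body knockouts, 0.0307% for the beta-cell mean and 0.043% between the lines.

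Females and males were also compared, as the mean over genotypes. Age was not a covariate here, and whole-body females were 98 to 188 days old and males 111 to 155 days. By DESeq2 the slope of Col8a2 on age was 0.18 log2 units per 30 days (unadjusted p 0.0703). The part of age in the differences between the sexes was not tested. In the whole-body line Col8a2, a chain of the network-forming type VIII collagen known from the cornea and vessel walls, was lower in males. Col8a2 (chromosome 4, 126286793 to 126314330, plus strand) stood at 3.38, 4.09 and 2.12 CPM in knockout females and 2.18, 2.78 and 2.09 CPM in control females. It was at 1.59, 1.28 and 0.894 CPM in knockout males and 1.02, 1.09 and 1.18 CPM in control males. All 6 females lay above all 6 males. The log2 difference was -1.23 (SE 0.203, edgeR adjusted p 0.00986), which is 0.428 times the female level. It was the only call among 37 collagens, 2.70%, beside 5.65% of all genes in either direction and 2.16% lower in males. The adjusted p of Col8a2 ran from 4.21e-07 (DESeq2) to 0.601 (library size alone, without TMM), while the log2 difference stayed between -1.34 and -1.11.

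The beta-cell line gave the same direction. Col8a2 had 4.93 and 3.54 CPM in knockout females and 3.96 and 4.02 CPM in control females, against 1.61 and 1.81 CPM in knockout males and 1.73 and 1.69 CPM in control males. Again all females lay above all males. The log2 difference was -1.26 (SE 0.185), with an edgeR adjusted p of 0.0984, past the threshold in DESeq2 alone, which called 4 of 35 collagens here (11.4%, beside 4.36% of all genes) and 3 of 37 in the whole-body line (8.11%, beside 14.5%). With limma-voom the whole-body call of Col8a2 stood beside 5.89% of all genes. By edgeR no collagen was called in the beta-cell line, beside 0.104% of all genes. There 5 of 35 collagens, 14.3%, and 14.3% of all genes had an unadjusted p under 0.05.

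Col9a2 and Col26a1 were the next by p in both lines. Col9a2 had 4.62, 3.59 and 3.74 CPM in whole-body female knockouts against 3.90, 4.59 and 2.92 in female controls, and 2.72, 3.68 and 1.61 in male knockouts against 2.08, 2.26 and 2.64 in male controls. The values overlapped between the sexes, and the log2 difference was -0.64 (SE 0.201, edgeR adjusted p 0.0883). The beta-cell line gave -0.86 (SE 0.158, edgeR adjusted p 0.133), and all 4 females lay above all 4 males. Col26a1 (chromosome 5, 136741759 to 136883209) stood at 0.616, 0.825 and 0.914 CPM in whole-body female knockouts against 0.396, 1.01 and 1.08 in female controls, and 0.488, 0.423 and 0.305 in male knockouts against 0.681, 0.394 and 0.626 in male controls, and the sexes overlapped. Mice of the beta-cell line had 1.19 and 1.49 CPM in female knockouts against 2.05 and 1.76 in female controls, and 0.447 and 0.583 in male knockouts against 0.816 and 0.433 in male controls, without overlap. Its log2 differences were -0.77 (SE 0.272, edgeR adjusted p 0.123) and -1.497 (SE 0.300, adjusted p 0.150).

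**Figure D5:**
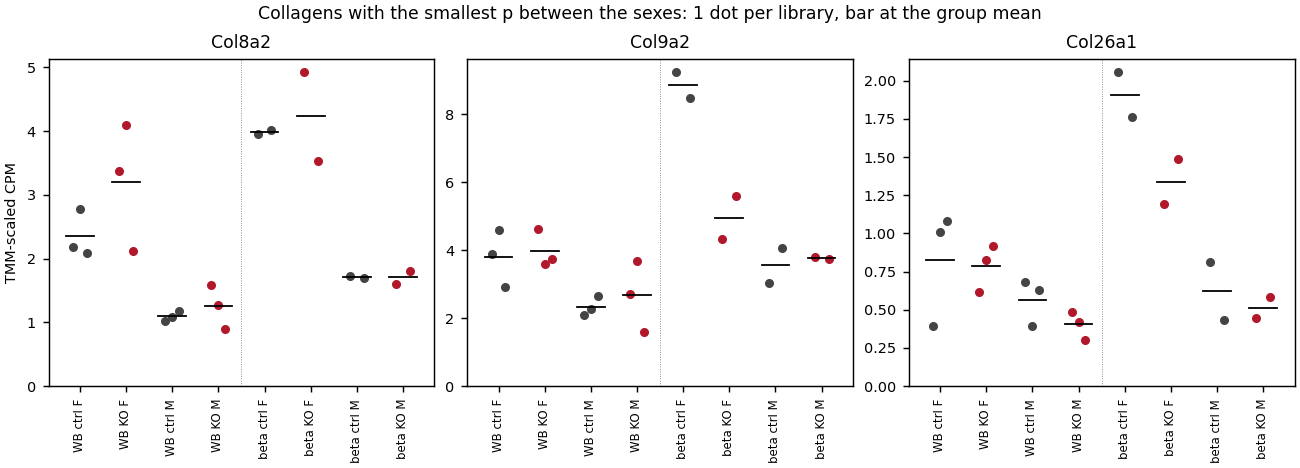
TMM-scaled CPM of Col8a2, Col9a2 and Col26a1 in every library (dots; red, knockout; grey, control) with group means (bars), by sex, genotype and line. For Col8a2 the whole-body females lie at 2.09 to 4.09 CPM and the males at 0.894 to 1.59 CPM, and the beta-cell line females at 3.54 to 4.93 CPM and the males at 1.61 to 1.81 CPM.

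No difference between classes was tested in the sex comparison. Fibrillar collagens were lower in males for 8 of 9 genes in the whole-body line (median -0.33) and 9 of 9 in the beta-cell line (median -0.74), beside -0.02 and -0.01 over all genes, and none was called. The others had medians of -0.29 (14 of 22 below 0) and -0.60 (17 of 21 below 0), and type IV genes 0.00 and -0.21. Col4a5, on the X chromosome, had a log2 difference of -0.93 in the whole-body line (SE 0.486, edgeR adjusted p 0.280) and -0.27 in the beta-cell line. Leaving out control female 3 took the whole-body fibrillar median to -0.05, and leaving out control female 1 took that of the beta-cell line to -0.29. Marker genes of alpha, delta and PP cells differed in the same comparisons: 4 of 8 were called lower in males in each line, with medians of -0.67 (whole-body) and -0.96 (beta-cell). Of all genes, 2.16% were called lower in the whole-body line, and 0.104% were called in either direction in the beta-cell line. Gcg, which encodes glucagon, had log2 differences of -0.65 and -1.33. Stellate and fibroblast markers had 12 of 14 below 0 in the whole-body line (median -0.22) and 13 of 13 in the beta-cell line (median -0.48), none called. The part of these cells in the lower Col8a2 of males was not tested.

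Slopes of log2 level on age were fitted within groups across the ages of 98 to 188 days in the whole-body line. By edgeR and limma-voom no gene was called. DESeq2 called 0.419% of all genes and no collagen. The 4 collagens with an unadjusted p under 0.05 by edgeR were 10.8% of the 37, beside 9.52% of all genes. Col4a1 changed by -0.18 per 30 days (SE 0.0631, edgeR adjusted p 0.517), Col4a2 by -0.20, Col16a1, a FACIT collagen, by -0.29 and Col7a1 by 0.70. All 6 type IV slopes were below 0 (median -0.16), and the slope of Col4a1 was -0.10 without control female 3, aged 109 days. Acinar markers went the other way, with 19 of 19 slopes above 0 (median 0.97), and endothelial markers had 12 of 12 below 0 (median -0.16). Their part was not tested.

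Genes that make, bind or degrade collagen showed no call in any knockout comparison by edgeR. From each list, genes with the smallest p for the mean of both sexes are named. The list for collagen synthesis and crosslinking had 42 genes, of which the whole-body fit tested 35 and the beta-cell fit 31. The mean whole-body knockout effect had its smallest p for P3h2, a prolyl 3-hydroxylase (log2 change 0.58, edgeR adjusted p 0.654), Bmp1, which trims procollagen (-0.17), Plod1 (0.18) and Plod2 (0.39), both lysyl hydroxylases. In the beta-cell line the smallest p values were those of Serpinh1, the collagen chaperone HSP47 (-0.45, edgeR adjusted p 1.00), Loxl3 (-0.59), P4hb (-0.14) and P3h2 (0.44). Among 11 collagen receptors Ddr1 (-0.26), Itga10 (0.57), Itga2 (-0.64) and Adgrg1 (-0.14) led the whole-body line, and among 9 in the beta-cell line Lair1 (-0.37), Itga2 (-0.55), Itgb1 (0.06) and Ddr1 (-0.09). The other basement membrane genes, such as laminins and nidogens, were above 0 in 15 of 19 in the whole-body line (median 0.21) and below 0 in 17 of 18 in the beta-cell line (median -0.29), beside medians of 0.02 and 0.00 over all genes. The endothelial markers had medians of 0.25 and -0.30, with summed means of 848 and 842 CPM in female and male whole-body knockouts against 642 and 752 CPM in controls, and of 410 and 477 CPM in beta-cell knockouts against 557 and 540 CPM. Their part was not tested. Lama3, a laminin chain, stood at 0.40 in the whole-body line, and Nid2, a nidogen, at -0.58 and Lama2, another laminin chain, at -0.54 in the beta-cell line.

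Of the 13 genes of collagen breakdown, 11 and 8 were tested, and Timp3, an inhibitor of matrix proteases, led the whole-body list by p (log2 change 0.36, edgeR adjusted p 0.832), followed by Mmp13 (0.75), Mmp9 (-0.60) and Fap (0.19). Timp1 (0.62), Timp3 (-0.37), Mmp14 (-0.13) and Timp2 (-0.12) led in the beta-cell line. Of 17 genes of TGF-beta signalling, which raises fibrillar collagen synthesis, Ltbp3 (-0.20), Tgfb2 (0.29), Smad4 (-0.17) and Ccn2 (0.31) led in the whole-body line, and Tgfbr3 (0.25), Ltbp1 (-0.52) and Eng (-0.43) in the beta-cell line.

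Between the sexes, 4 genes of collagen synthesis were higher in whole-body males, beside 3.49% of all genes called higher. They were P4hb, the beta subunit of prolyl 4-hydroxylase and a disulfide isomerase of the secretory pathway (log2 difference 0.57, SE 0.0794, edgeR adjusted p 0.00512), Fkbp14 (0.43, adjusted p 0.0342), Ppib (0.40, adjusted p 0.0442) and P4ha1 (0.54, adjusted p 0.0447), which all work in the endoplasmic reticulum. None of that list was called lower, and the median of its 35 tested members was 0.07. Beta-cell markers were called higher in the same comparison for Ins1 (0.45), Iapp (0.50) and G6pc2 (0.65), and their part was not tested. In the beta-cell line no gene of the pathway lists was called between the sexes.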

How the data were processed

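RNA of islets was sequenced in 20 libraries, 12 of the whole-body line and 8 of the beta-cell line, each labelled as a separate mouse. The authors deposited expected counts per gene, whole numbers in these files; the submitters' processing notes name STAR 2.5.3a, RSEM 1.3.0 and mm10. The annotation, the strand setting, any use of molecular identifiers and the low-count filter of the beta-cell line tables are not given in the sources used here. RSEM shares reads between overlapping or similar genes by estimate.

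Counts were tested with edgeR 4.0.16 (R 4.3.3; filterByExpr, TMM, robust quasi-likelihood F-test), fitted per line over all 4 groups with genotype by sex, with Benjamini-Hochberg adjustment over all genes tested. "Called" means an adjusted p under 0.05. There were 12 comparisons. Alternatives were DESeq2 1.42.0, limma-voom 3.58.1, no TMM, no filter, each replicate left out and the replicate number as a block. Age as covariate was a further one, for knockout comparisons within a line alone. P-values measure the spread between these mice. Line and sequencing batch coincide, so they cannot be told apart. Same-numbered mice of the beta-cell line share their age, per the labels. The correlation of their deviations was 0.218 in females and 0.387 in males. For mice of different numbers it was -0.218 and -0.387. Each group there is a pair of mice, so these values mirror each other by construction. They cannot decide whether same-numbered mice deviate together.

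Levels are TMM-scaled CPM, and per kb they use union exon lengths of GENCODE M21 (GRCm38, the build mm10), which also gave the coordinates. Promoters came from RefSeq. Correlations used permutation tests with 100000 resamples, two-sided. The scripts were tested on simulated data. A change of 1 log2 unit, set in 100 genes, was called for 42% of them in whole-body females and 42% in males. In beta-cell line females and males the shares were 43% and 47%. For a change of 2 log2 units the shares were 77%, 79%, 84% and 84% in the same order.

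Named in each comparison were all called collagens, otherwise the 5 with the smallest p in each direction, and in knockout comparisons by sex a panel of 10 genes. From each pathway list up to 4 genes with the smallest p were named. Some genes that this rule would name are not reported here. Members and lists were chosen with earlier results of these data known.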

Additional observations from a re-analysis of the deposited data

How the results depend on the processing

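No collagen was called in any knockout comparison under DESeq2, limma-voom, no TMM, no filter, the age covariate, the replicate block or with each replicate left out. Between the sexes of the whole-body line, 1 collagen was called by edgeR, 3 by DESeq2 (Col8a2, Col9a2 and Col26a1, beside 14.5% of all genes), 0 without TMM, and 1 to 2 with each replicate left out (Col6a3 in addition without knockout male 1, Col26a1 without control female 1). In the beta-cell line DESeq2 called 4 (those 3 and Col15a1, beside 4.36% of all genes) where edgeR called 0. The cause was not tested. The r of Col1a1 with stellate and fibroblast markers was 0.315 without the 2 farthest libraries and 0.552 to 0.929 with each replicate left out, the lowest without control female 2. Without TMM the median of all genes in whole-body females moved by 0.44 log2 units, to 0.45. Of the named log2 changes under alternatives, 2662 kept their direction and side of the threshold and 172 that were not called changed sign. With the replicate number as a block, 0 collagens were called in either line. In the whole-body line the same number did not pair mice (correlations of 0.171, -0.19 and 0.144 in females and -0.223, 0.028 and -0.156 in males). With 2 or 3 mice a group, the 95% intervals of the knockout changes by sex passed 1 log2 unit on at least 1 side for every tested fibrillar gene except Col27a1, in whole-body females, whole-body males and beta-cell line males.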
